A study of Drosophila melanogaster with 4 samples.

Results

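Of the 2639 peaks called for GFP-tagged Lola-PI in Drosophila melanogaster larvae, 605 (22.9%) lay on the left arm of chromosome 3 (3L). They were chosen by position alone, as every peak that the authors' list assigns to 3L, so that neither score nor width took part in the choice. The neighbouring heterochromatin sequence 3LHet was kept apart. Wandering larvae of the last instar, of the strain labelled lola-RI-GFP, were the source of all 4 libraries. They comprised 2 libraries precipitated with a rabbit polyclonal antibody against GFP and 2 libraries of input DNA. All shared the genotype PBac{y[+]-attP-3B}VK00033, which names a docking site for transgenes, and a transgene holding the genomic coding region of lola-RI. As background, that docking site lies on 3L itself, and its position was not analysed here. The labels give the sex as unknown and name no mutation of the resident lola gene. The antibody was directed at GFP, so its target was the tagged protein. Whether other protein was recovered with it was not tested. The labelled protocol describes flies grown at 25 °C and larvae fixed in 1.8% formaldehyde for 15 min. It names y; bw cn sp flies, which is not the strain label. Whole larvae were fixed, so no peak can be tied to a tissue. No untagged strain was analysed here.

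The lola locus (longitudinals lacking) makes a large set of proteins by alternative splicing. They share an amino-terminal BTB domain, through which such proteins pair, and most differ in a carboxy-terminal zinc-finger region that contacts DNA. The gene is known for its roles in axon growth and guidance and in neuronal identity. In FlyBase naming a transcript is marked R and its protein P, so lola-RI is the transcript of the Lola-PI protein in the series title. A ChIP-seq peak is a stretch where precipitated fragments outnumber those expected from the background. Its score is given here without a stated scale and is used to rank the peaks of the list. Strong and weak calls below are those of high and low score.

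Coordinates are on FlyBase release 5, whose numbering on 3L and 2L runs from the telomere to the centromere and on 3R from the centromere to the telomere. The reference gene table used here is on release 6, so no peak was assigned to a gene and no genome sequence was read. The list gives no value per library. The depth is unknown, no replicate error can be attached to a score, and no p-value is given. Intervals are exact 95% intervals for counting error only, and because peaks sit in groups they are narrower than the true uncertainty.

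Lola-PI peaks ran along nearly the whole of 3L, at a density close to those of 2L and 3R. The first peak started at 50894 and the last ended at 24527998. Over this length the arm held 24.7 peaks per Mb (95% Poisson interval 22.7 to 26.7). The density was 22.8 per Mb on 2L (524 peaks) and 25.0 per Mb on 3R (698 peaks). The ratio of 3L to 2L was 1.08 (95% interval 0.96 to 1.22), and the ratio of 3L to 3R was 0.99 (95% interval 0.88 to 1.10). Neither interval excluded equal density. Together the peaks covered 201 kb, or 0.82% of the arm, against 0.77% of 2L and 0.84% of 3R.

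**Figure D1:**
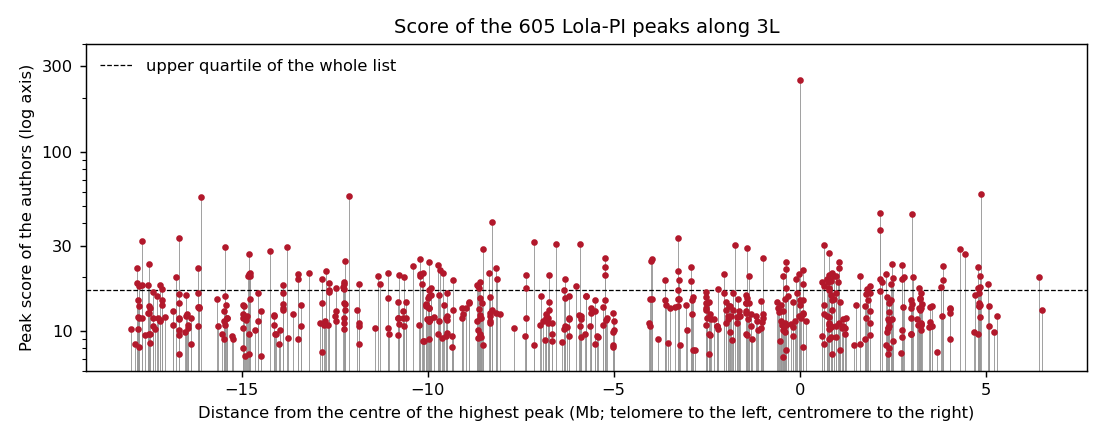
Each point is 1 of the 605 peaks on 3L, placed by its distance in Mb from the centre of the highest peak (x axis) and by its score on a log axis (y axis); thin lines run down from each point, and the dashed line marks the upper quartile of the whole list, 16.985. One peak at 253 stands above all others, of which the next reaches 58.5, and most points lie below the dashed line.

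The strongest call of the whole list lay on 3L. It ran from 18018910 to 18020026 (3L:18018910-18020026), was 1117 bp wide and scored 253, while the second peak of the arm scored 58.5 and ranked only 18th in the list. Its own surroundings held ordinary peaks. The nearest, 2032 bp towards the centromere at 18021346 to 18021654, scored 13.96 and was followed by one at 18021996 to 18022199 with a score of 14.8. On the telomere side the nearest lay 7562 bp away, from 18011671 to 18012141, with a score of 12.1, and the one beyond it at 18004958 to 18005187 scored 20.9. No peak within 10 kb reached the upper quartile of the list: the 3 there scored between 12.1 and 14.8.

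Further out, the fifth neighbour on the telomere side started at 17901395 and scored 11.4. Between it and the highest peak stood calls at 17915430 (score 19.6) and 17942299 (score 16.25). On the centromere side came a single call at 18054918 (score 11.9) and then a group that opened at 18098632 (score 14.8) and 18099172 (score 18.35). The best of that group ran from 18099881 to 18100299 with a score of 21.9. Within 100 kb on either side there were 12 other peaks, where the mean density of the arm gives 4.93, and within 500 kb there were 37, where it gives 24.7. Their median scores were 14.4 and 12.4, close to the arm's median of 12.9. Since peaks sit in groups, a window centred on a peak tends to hold more than the mean density of its arm gives. The number around a typical peak was not counted. The sides were uneven. Of the 12 within 100 kb, 9 lay towards the centromere, and of the 37 within 500 kb, 27 lay towards the telomere. The centromere side of the wider window was mostly empty, since a peak-free stretch of 436 kb began at 18178476.

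**Figure D2:**
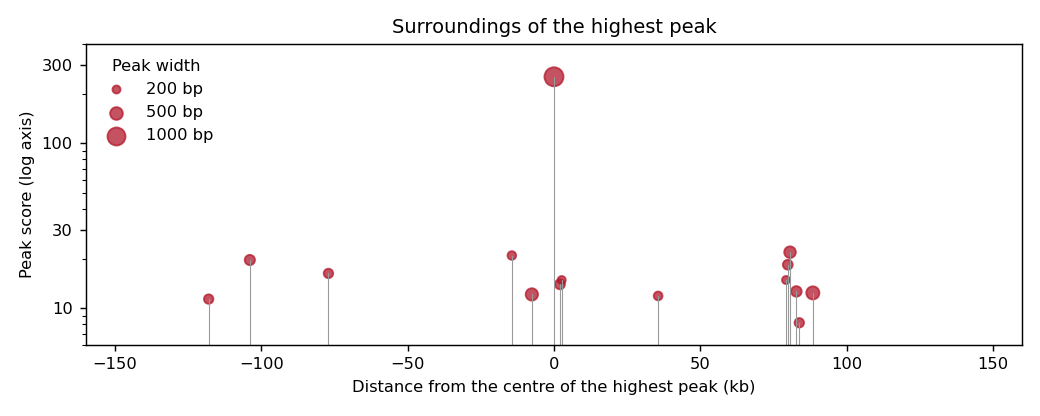
Peaks within 150 kb of the highest peak are placed by distance in kb from its centre (x axis) and by score on a log axis (y axis), with the point area proportional to peak width. The 14 other peaks shown score at most 21.9, against 253 for the peak at 0.

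The top peaks of the other arms also had other calls within 10 kb. The best peak of 3R, from 58080 to 58848 with a score of 132, had 3 others within 10 kb that scored between 9.93 and 13.99. The best of 2L, from 5001196 to 5001713 with a score of 65.8, had 5 within 10 kb that scored between 12.6 and 23.4. That highest neighbour on 2L passed the upper quartile of the list, which no call within 10 kb did on 3L or 3R. Within 100 kb of its best peak 2L held 16 others, where the mean density of that arm gives 4.56. Within 500 kb it held 29, where the mean gives 22.8. On 3R the counts within 100 and 500 kb were 5 and 19. The best peak of 3R lay so near the start of the coordinates that both windows were cut short on the centromere side. The means for full windows on 3R, 5.00 and 25.0, are thus too high, and its counts cannot be set against them.

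After the highest peak, the strongest calls were scattered over the arm. Rank 2 on 3L lay near the centromere, from 22887616 to 22888269 (score 58.5). Rank 3 ran from 5919783 to 5920467 (score 56.5) and rank 4 from 1926015 to 1927005 (score 55.9). None of these 3 had a close neighbour, the nearest other peak being 22095, 114660.5 and 60700.5 bp away, and rank 4 bordered one of the 5 longest peak-free stretches of the arm.

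Ranks 5 and 8 formed 1 compact group. The group opened at 20176196 to 20176423 with a score of 16.8. Rank 5 followed from 20176721 to 20177161 (score 45.4) and rank 8 from 20178762 to 20179454 (score 36.5). A call at 20179835 to 20180126 (score 19.5) closed the group, and the next peak on the telomere side was 255231 bp away. Ranks 5 and 8 thus stood between calls of lower score, in a short group beside a long empty stretch.

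Rank 6 ran from 21042289 to 21043088 (score 45.0) and rank 7 from 9754966 to 9755556 (score 40.7). Ranks 9 and 10 shared a score of 33.0. One of them, from 1350159 to 1350502, had a neighbour 591.5 bp away, and the other, from 14749326 to 14750465, was the widest peak of the arm at 1140 bp. That widest peak sat in a row of 5 calls between 14748056 and 14753396, whose other members scored 16.8, 13.7, 21.5 and 15.1. Of the 10 highest peaks on 3L, 6 had another peak under 5 kb away, as did 6 of 10 on 2L and 4 of 10 on 3R. Among all peaks the share with such a neighbour was 62.6% on 3L, 64.3% on 2L and 65.3% on 3R. The count for the highest peaks of 3L was thus near the share of the whole arm. Only 16 peaks on 3L scored 30 or more, beside 14 on 2L and 21 on 3R.

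Over all 605 peaks, scores on 3L were spread like those of the compared arms. The lowest was 7.19 and the highest 253. The median was 12.9, and the middle 50% of peaks scored between 10.7 and 16.25. The medians of 2L and 3R were 13.1 and 13.1. Scores at or above the upper quartile of the whole list, 16.985, were held by 141 peaks (23.3%, 95% binomial interval 20.0 to 26.9). The same share was 23.3% on 2L and 22.8% on 3R. The highest peak was a single extreme value, and the share of high-scoring peaks on its arm lay within the counting intervals of the compared arms.

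Scores recurred. The 605 peaks held 286 distinct scores, of which 193 occurred once on the arm and 7 were held by at least 10 peaks each. These 7 values lay between 9.67 and 11.87 and took in 90 peaks (14.9%). The most frequent, 11.87, was held by 19 peaks on 3L, 10 on 2L and 11 on 3R. All 7 lay below the median of the arm.

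Peaks were narrow. Their median width was 290 bp and the quartiles were 233 and 377 bp. Median widths were 297.5 bp on 2L and 294 bp on 3R. The minimum width in the list, 201 bp, was held by 21 peaks on 3L (3.47%, 95% interval 2.16 to 5.26), and none of these scored above 13.99. Wider peaks scored higher: Spearman's rho between width and score was 0.41 across the 605 peaks, 0.46 on 2L and 0.44 on 3R. Both measures come from the same call and the points share their libraries, so rho is a description. Peaks below the list's lower quartile of score had a median width of 248 bp, and those at or above its upper quartile had 369 bp.

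Width and score parted in single peaks. After the 3 widest, which were ranks 9, 1 and 4 by score, came calls from 11287248 to 11288146 (899 bp, score 20.55) and from 7373669 to 7374556 (888 bp, score 19.9). Of the 42 peaks at least 600 bp wide, 5 scored below the list's median of 13.17. The widest of those 5 ran from 22066466 to 22067301 (836 bp, score 12.6). In the other direction, the narrowest of the 16 peaks that scored 30 or more was 283 bp wide, from 342834 to 343116, with a score of 31.9. The weakest call of the arm ran from 17568723 to 17568929, was 207 bp wide and scored 7.19.

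**Figure D3:**
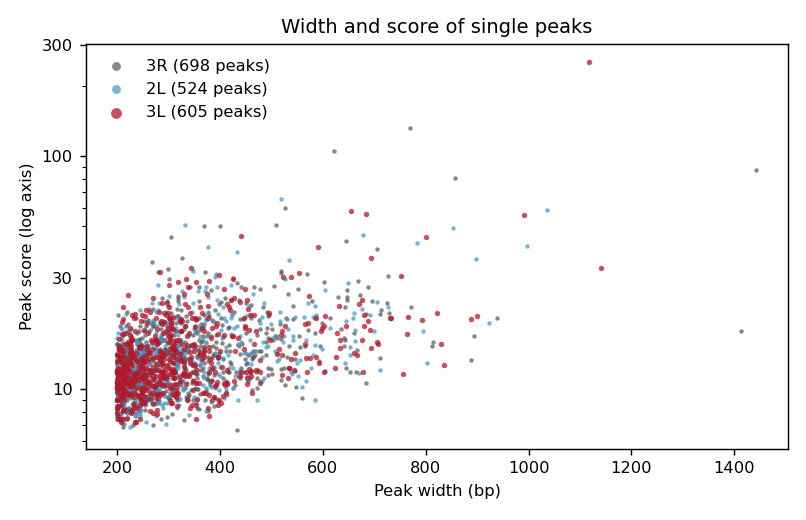
Width in bp (x axis) and score on a log axis (y axis) of each peak on 3L (red), 2L (blue) and 3R (grey). The 3 clouds overlap, and the peak at 1117 bp and 253 stands above all others.

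Along the arm the peaks were uneven at the scale of 1 Mb. The 24 complete bins held between 5 and 48 peaks, with a mean of 25.1 ± 10.7 (SD over bins). The fullest lay from 18 to 19 Mb. It held the highest peak, the most crowded 100-kb stretch and 17 peaks at or above the upper quartile of the list. The next fullest, from 16 to 17 Mb, held 39 peaks but only 3 of that class, so a full bin was not always one of strong calls. The bins from 10 to 11 Mb and from 13 to 14 Mb held 7 and 8 peaks.

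Cut into 3 parts of equal length, 3L held 198 peaks in the part by the telomere, 185 in the middle part and 222 in the part by the centromere. The part by the centromere thus held 36.7% of the peaks (95% interval 32.8 to 40.7), with 25.6% on 2L and 36.7% on 3R. The median score was 12.9, 12.5 and 13.2 in the 3 parts of 3L from telomere to centromere. The share at or above the upper quartile of the list was lowest in the middle part, 18.9% (95% interval 13.5 to 25.3), and 24.7% and 25.7% in the outer parts (95% intervals 18.9 to 31.4 and 20.1 to 31.9), so that the 3 intervals overlapped.

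Although the part by the centromere was well filled, its outermost part was nearly empty. In the last 1 Mb before the end of the last peak there were 2 peaks, in the 1 Mb before that 19, and in the next 15. The fill then rose to 30, 38 and 48 per Mb. The last 3 Mb held 36 peaks, or 5.95% of those on the arm (95% interval 4.20 to 8.14), where length alone gives 12.2%. The corresponding 3 Mb held 63 peaks on 2L, or 12.0% (95% interval 9.36 to 15.1), and 88 on 3R, or 12.6% (95% interval 10.2 to 15.3). The interval of 3L lay below both of these, but the difference was not tested. Among the 141 peaks of 3L at or above the upper quartile of the list, the share in the last 3 Mb was 8.51% (95% interval 4.48 to 14.4), whose interval takes in the share given by length. The distance is counted from the outermost peak, so it is a distance to the centromere only as far as peaks reach. The list also holds 13 peaks on 3LHet, the heterochromatin sequence assigned to the same arm, which are not counted here.

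**Figure D4:**
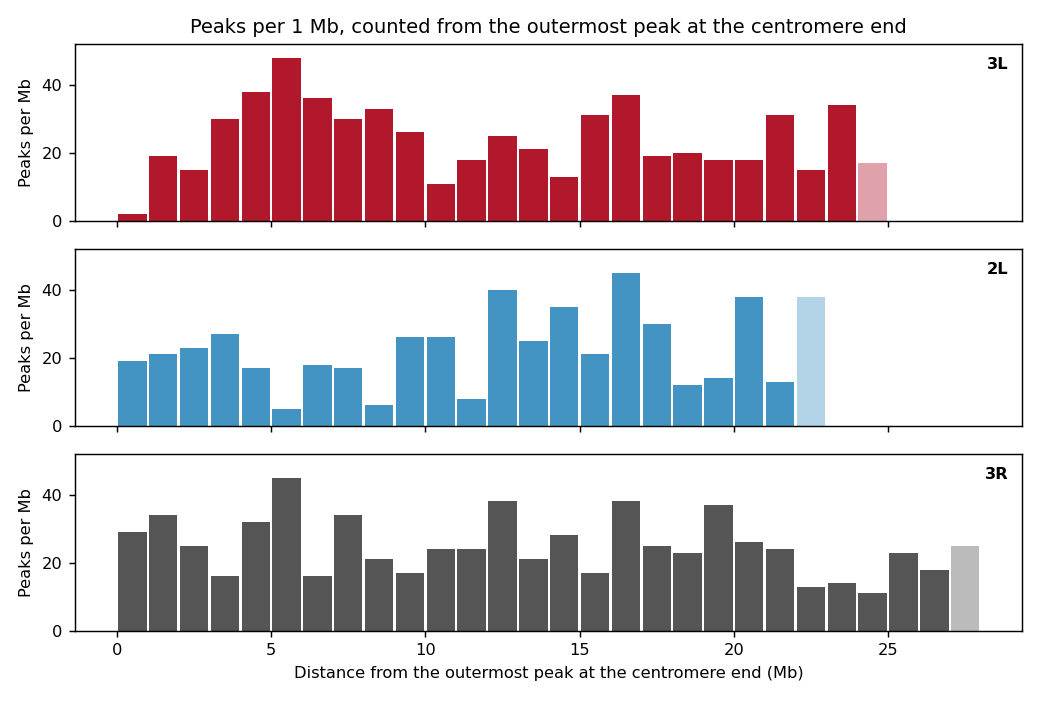
Peaks per 1 Mb (y axis) by distance in Mb from the outermost peak at the centromere end (x axis) for 3L, 2L and 3R; the pale bar at the far end of each arm covers less than 1 Mb. On 3L the first bar holds 2 peaks, against 19 on 2L and 29 on 3R, and the sixth holds 48.

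Calls at this end were of mixed strength. The 2 outermost peaks ran from 24457334 to 24457685 (score 20.1) and from 24527760 to 24527998 (score 13.17). They were cut off from the rest by the longest peak-free stretch of the arm, 1125 kb between 23332036 and 24457334. The longest distance between neighbouring midpoints was 1125577.5 bp on 3L, 663731.5 bp on 2L and 429974.5 bp on 3R. On the telomere side of the empty stretch lay single calls at 23331828 (score 12.1) and 23251708 (score 9.90), a pair at 23117412 (score 10.6) and 23118593 (score 13.7), and 1 at 23089527 (score 18.35). The median score of the 36 peaks in the last 3 Mb was 13.7, against 12.9 on the whole arm. Of these 36 peaks, 24 reached the list's median score, which 48.1% of all peaks on the arm did. Their median width was 328.5 bp, above the arm's median of 290 bp.

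Between 22 and 23 Mb many peaks came in small groups. One group of 3 had almost no space between its members: the calls at 22815872 to 22816333 (score 9.67), 22816387 to 22817017 (score 22.9) and 22817103 to 22817729 (score 17.4) were 53 and 85 bp apart at their edges. Next came 4 calls that started at 22827218, 22829029, 22830823 and 22832726, with distances between midpoints of 1800.5, 1973 and 1948 bp. Their scores were 13.8, 14.3, 13.7 and 16.25. A further group started at 22861068, 22861948, 22863736 and 22865618, with distances of 896, 1963.5 and 1819 bp and scores of 13.99, 17.7, 20.2 and 11.95. In these 2 groups 5 of the 6 distances thus lay between 1800.5 and 1973 bp, and the other was shorter. The rank 2 peak of the arm followed at 22887616. These distances were noticed in the list and were not tested.

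At the telomere end of that same bin lay 4 calls between 22064186 and 22070379, with scores of 13.3, 12.6, 13.4 and 8.98 and distances of 2573, 1651.5 and 1645.5 bp. Then followed well-separated calls at 22339717 (score 28.9), 22448982 (score 26.9), 22709771 (score 9.88) and 22734035 (score 15.98). The calls at 22339717 and 22448982 ranked 20th and 24th by score on the arm, each more than 100 kb from any other peak. The sparse end of 3L was thus low in number of peaks, while both strong and weak calls were present in it.

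Other long stretches without a peak lay inside the arm. The second longest, 919 kb, ran from 13038409 to 13957384, between calls that scored 10.1 and 11.1. The next were 445 kb from 1927005 to 2372363, 436 kb from 18178476 to 18614610 and 411 kb from 6188830 to 6599464. The stretch of 436 kb separated the highest peak and its neighbours from the most crowded part of the same 1-Mb bin. Of the 604 distances between neighbours on 3L, 27 were at least 200 kb long. They summed to 8.84 Mb, or 36.0% of the arm, with 39.4% on 2L and 31.4% on 3R. At unknown depth, a stretch without a peak is one where nothing was called, not one shown to lack binding.

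Against these empty stretches, most peaks had close company. The median distance between neighbouring midpoints on 3L was 10009.8 bp, with quartiles of 1749.75 and 39059 bp. Medians were 9257 bp on 2L and 10010.5 bp on 3R. Neighbours under 1 kb apart made up 85 of the 604 distances, or 14.1% (95% interval 11.4 to 17.1), against 12.2% on 2L (95% interval 9.55 to 15.4) and 16.6% on 3R (95% interval 13.95 to 19.6). The shortest class, under 500 bp, held 2.81% of distances on 3L (95% interval 1.65 to 4.47), 3.44% on 2L and 5.60% on 3R (95% interval 4.01 to 7.57). Cut into 100-kb bins, 3L had 73 of 246 bins without a peak, and its 41 fullest bins held at least 50% of the peaks.

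**Figure D5:**
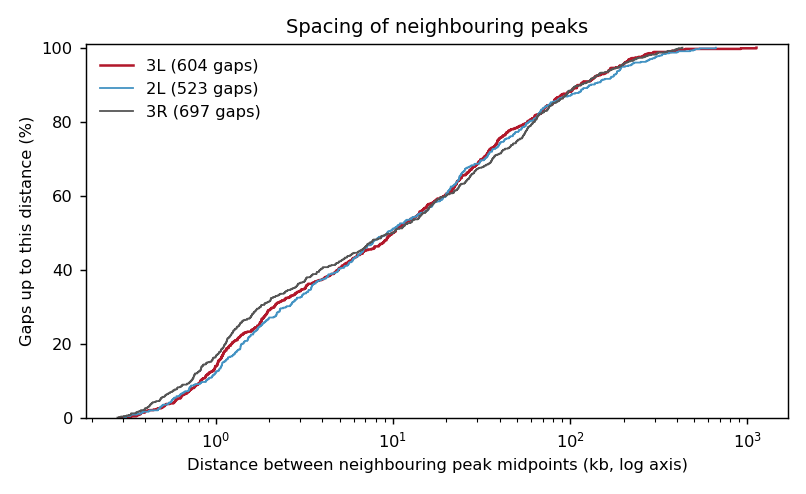
Cumulative share of distances between neighbouring peak midpoints (y axis, percent) by distance in kb on a log axis (x axis) for 3L (red), 2L (blue) and 3R (grey). The curves run close together, with medians of 10009.8, 9257 and 10010.5 bp, and that of 3R lies highest below 1 kb.

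Rows of close peaks were mostly pairs. With neighbours under 1 kb apart joined, 155 peaks (25.6%) fell into 70 groups, of which 57 were pairs and 12 held 3 peaks. The remaining group held 5, more than any on 2L or 3R, where the longest held 3 and 4. It ran from 5760844 to 5763908 and scored 11.1, 18.7, 14.3, 17.1 and 18.4 from telomere to centromere, with peaks covering 1956 of its 3065 bp. Edges of its members came as close as 60 and 66 bp. On the whole arm, 15 pairs had edges under 100 bp apart. The smallest space between 2 peaks anywhere in the list was 50 bp, none overlapped, and whether the calling divided single regions was not tested.

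Peaks with close neighbours scored near those that stood alone. Median scores on 3L were 13.6 for the 155 peaks with a neighbour under 1 kb away, 13.15 for the 224 with one at 1 to 5 kb, 12.1 for the 187 at 5 to 50 kb and 12.4 for the 39 with none within 50 kb. Of those 39 isolated peaks, 13 (33.3%, 95% interval 19.1 to 50.2) reached the upper quartile of the list, and of the closest 155 it was 39 (25.2%, 95% interval 18.5 to 32.8). On 2L isolated peaks reached it in 3 of 26 cases and on 3R in 11 of 52. Neighbours under 1 kb apart on 3L differed in score by 3.91 at the median. The difference was 4.46 at 1 to 5 kb, 3.22 at 5 to 50 kb and 4.96 at 50 kb or more. It thus did not rise steadily with distance. On 2L it was 5.27 under 1 kb and 4.16 at 50 kb or more, and on 3R 3.505 and 4.46.

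The most crowded 100-kb stretch of 3L held 17 peaks between 18783744 and 18883504. Peaks covered 6.37% of it, and 6 of the 17 reached the upper quartile of the list. Its median score was nonetheless 11.95, below that of the arm. It was made of 2 dense groups and single calls around them. The first group, of 8 calls between 18804766 and 18816623, scored 10.9, 8.98, 10.25, 11.95, 16.8, 27.4, 20.55 and 11.1 from telomere to centromere, so that its strongest members stood side by side near its centromere edge. The second, of 5 calls between 18859575 and 18863831, scored 15.95, 10.6, 9.30, 18.97 and 10.6. Before the first group lay a wide call from 18783744 to 18784423 (score 18.7) and a pair at 18793139 (score 19.2) and 18793966 (score 17.3), and the stretch closed with a weak call at 18883294 (score 7.46).

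The second most crowded stretch held 14 peaks between 9352269 and 9451266, with a median score of 12.1 and a highest of 18.7. The third held 13 peaks between 7967640 and 8065197, with a median of 13.7, and only 1 of its peaks, the one that scored 24.2, reached the upper quartile of the list. It ended in another row of 8 peaks with neighbours under 5 kb apart, from 8049351 to 8065197. These 2 rows of 8 were the longest of their kind on 3L, and the longest on 2L and 3R held 9 each. The fullest stretches of the compared arms held 18 peaks on 2L, with a median score of 13.05, and 17 on 3R, with a median of 16.25. All these stretches were picked for their counts, so the counts describe them and nothing was tested.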

How the data were processed

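The data were 1 peak list for 2 ChIP and 2 input libraries. Per the file headers it is a GFF3 file on FlyBase release 5 whose source column reads MACS. Tools named in the submitters' processing notes, with no role or order, are MACS2, BWA and CASAVA (versions 1.7.0.2 and 1.7.0.3). Neither the pooling of libraries nor the threshold of the calls is stated in the labels or the header. Scores were deposited by the authors with no stated scale, and were used to rank, filter and describe. Other deposited values, start and end, were taken as they stand (1-based).

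Peaks were taken from the chromosome column. The length of an arm was taken to the end of its last peak. Distances run between midpoints unless edges are named. Median, quartile, Spearman and exact Poisson, binomial and conditional binomial intervals were computed with scipy 1.17.1, pandas 2.3.3 and numpy 2.4.6 under Python 3.11.15 (figures with matplotlib 3.10.9), after a check on simulated data. No test across samples was possible. Peaks named are the 10 highest, the 5 widest, 5 neighbours on each side of the highest, the fullest stretches, the longest group of close peaks, the 5 longest gaps and those from 22 Mb to the end. Other peaks were named after their values were seen. Members, rules and alternatives were chosen with earlier results of these data known.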

Additional observations from a re-analysis of the deposited data

Results flagged for a closer look

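Outside the arm, and in no comparison above, 13 peaks lay on 3LHet, the heterochromatin sequence assigned to the same arm, between 459379 and 2397733. They are listed here because the values belong to no result of the arm. Their median score was 17.7 and their median width 281 bp. Of the 13, 8 reached the upper quartile of the list, against 141 of the 605 peaks on 3L (23.3%). No interval was computed for these few peaks, and the difference was not tested. The highest ran from 1396453 to 1397123 (671 bp) with a score of 107, rank 4 of the list, and the next from 601345 to 601645 with a score of 45.9. The first of these scores would be the second highest on 3L. Sequence copy number was not tested.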

How the results depend on the processing

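No paired analysis was possible because values of single libraries are not part of the peak list, nor could a library be left out. The unknown depth limits what can be said of stretches without a peak. The share of main-arm peaks on 3L (23.5%) and the density ratios to 2L and 3R stayed within their counting intervals among the 1322 and the 660 highest-scoring peaks of the list, after merging within 500 bp and without the narrowest peaks. Spearman's rho of width and score was tried only without the narrowest peaks (0.39) and without the highest peak (0.40). The share of neighbours under 1 kb apart was 14.1% over all peaks of 3L. It was 9.66% among the 291 peaks of 3L at or above the list's median score. Among the 141 at or above its upper quartile it was 5.00%. Keeping fewer peaks lengthens distances by construction, so these shares do not compare the grouping of strong and weak calls. After merging within 500 bp the share was 3.50%, since merging joins most such pairs by construction. The share of 3L peaks in the last 3 Mb moved from 5.95% to 8.25% among those 291 and to 8.51% among those 141, where length gives 12.2%. Measured over the last 2 Mb the share was 3.47% and over the last 4 Mb 10.9%, where length gives 8.15% and 16.3%. The fullest stretch of 3L held 17 peaks in 100 kb, 11 in 50 kb and 25 in 200 kb, and 14 in 100 kb after merging.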
